A study of Mus musculus with 6 samples.

Results

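The semaphorins, plexins and neuropilins of the dorsal root ganglion (DRG) were compared between control and Tlx3cko mice. Members were the protein-coding genes of semaphorin classes 3 to 7, of plexins A to D and of both neuropilins in the table of read counts per gene. The rule gave 31 genes among 47937 rows of the table, namely 20 semaphorins, 9 plexins and 2 neuropilins. Whole-DRG RNA, taken from cervical to lumbar levels of mice of about 2 months on a C57BL/6 background, was sequenced in 3 mice of each genotype. The Tlx3cko mice carried Tlx3f/f;SNS-cre, in which Cre is driven by the promoter of the nociceptor sodium channel Nav1.8, so that other DRG cells kept an intact Tlx3. The labels give the controls as wild type, whereas the behavioural tests of the same study used Tlx3f/f littermates, and whether the sequenced controls carried the floxed alleles is not given in the sources used here.

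Semaphorins are guidance cues that steer growing axons and later act on synapses, vessels and immune cells. Class 3 members are secreted, classes 4, 5 and 6 span the membrane, and class 7 is held by a lipid anchor. Plexins are their receptors and signal through a GTPase-activating domain inside the cell, and most class 3 semaphorins need a neuropilin as the binding partner beside a plexin A. In the DRG this system is best known for keeping sensory axons out of regions where they should not grow.

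Plxnc1, which encodes the plexin that binds Sema7a, was the member that fell in Tlx3cko DRGs, to 70.4% of its control level. The semaphorins Sema3g, Sema3f, Sema5a and Sema4f rose, to 153%, 148%, 137% and 134% of their control levels. No neuropilin and none of the other 8 plexins passed the test. Values are normalized counts, which put each library on the mean effective size of 14970767 counts, and the threshold was an adjusted p under 0.05 from edgeR's quasi-likelihood test across all genes. Of the 30 members with at least 10 counts in total, 4 were higher and 1 was lower past this threshold, against 1.69% of all 20006 genes tested that were higher and 2.56% that were lower. Among the 11867 genes at least as abundant as the lowest tested member, 2.45% were higher and 3.45% were lower, or 5.9% in either direction. The median log2 fold change was 0.17 over the tested members and 0.00 over all genes tested. In bulk counts alone a loss of cells of one type and less RNA per cell cannot be told apart. Citing earlier work, the study describes the number of IB4+ non-peptidergic neurons (labelled by isolectin B4) as largely unchanged in Tlx3cko DRGs. How cell numbers bear on the values here was not tested.

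The libraries held between 11458299 and 18775628 counts, so that each of the 5 genes rested on at least 289 reads in every library. Tlx3 itself had 1828, 2262 and 2433 counts in control DRGs against 1717, 1052 and 1475 in Tlx3cko DRGs, with an edgeR log2 change of -0.46 (SE 0.09, adjusted p = 0.0122). The sexes were not balanced. Xist was counted at 591 and 493 in control replicates 1 and 2, where the Y-linked Ddx3y was at 0, and at no more than 2 in the other 4 libraries, where Ddx3y was at 273 or more. A fit without control replicate 3 thus cannot tell genotype from sex. The calls below are therefore also given with the sex of the library as a term in the fit, where the genotypes are compared through control replicate 3 alone. Of the 5 calls, that of Plxnc1 was kept in that fit and the 4 rises were not. All 8 listed markers of DRG neurons were tested and 0 of them passed the threshold, with summed levels of 150537 to 160653 normalized counts in control and 152238 to 166185 in Tlx3cko libraries.

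**Figure D1:**
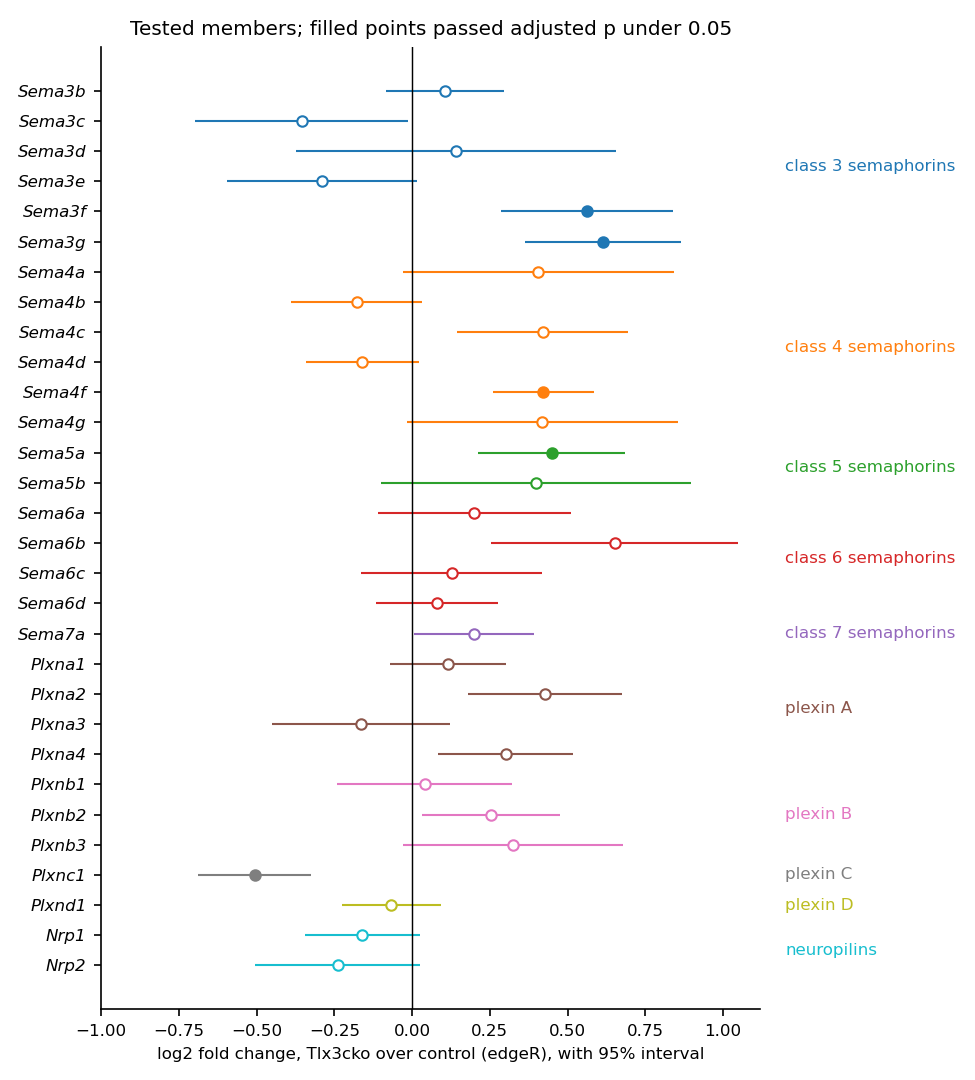
Log2 fold change of each of the 30 tested members, Tlx3cko over control, with its 95% interval (edgeR, n = 3 per genotype), ordered by class; filled points passed the threshold. Plxnc1 stands to the left at -0.51, and the filled points of Sema3f, Sema3g, Sema4f and Sema5a lie between 0.42 and 0.61.

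Plxnc1 (ENSMUSG00000074785) is at chromosome 10, 94790866 to 94944835, minus strand (GRCm38, as all positions here). It encodes plexin C1, whose ligand is the lipid-anchored Sema7a, and in single-cell surveys of the DRG it marks non-peptidergic neurons. It had 6138, 5157 and 6063 normalized counts in control replicates 1, 2 and 3, and 4097, 4287 and 3842 in Tlx3cko replicates 1, 2 and 3. Every Tlx3cko library was below every control library, and the lowest control and the highest Tlx3cko value were both those of replicate 2. The group values were 5786 ± 546 (SD, n = 3) and 4075 ± 223 (SD, n = 3), a log2 fold change of -0.51 (SE 0.08, edgeR adjusted p = 0.00321). Against control replicate 3 alone the log2 ratio was -0.57, and with sex as a term the fitted value was also -0.57 (edgeR adjusted p = 0.0187). The 6 fits without 1 library gave values between -0.58 and -0.46, all past the threshold. The listed markers of non-peptidergic nociceptors moved with it. All 6 were lower past the threshold, none was at 0, and their summed level went from between 18009 and 23240 to between 8896 and 10065 normalized counts; their part in the fall of Plxnc1 was not tested.

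Its ligand gene Sema7a (chromosome 9, 57940112 to 57962865) did not pass the test. Sema7a had 2628, 2246 and 2493 normalized counts in control DRGs against 2585, 3089 and 2787 in Tlx3cko DRGs. The groups overlapped through Tlx3cko replicate 1, which was below control replicate 1. The log2 fold change of 0.20 (95% interval 0.0071 to 0.39) had an edgeR adjusted p of 0.318. The ratio of Sema7a to Plxnc1, each per kilobase of exon, was 1.08, 1.10 and 1.04 in the control libraries. In the Tlx3cko libraries it was 1.60, 1.82 and 1.84. The ratio was thus slightly above 1 in each control library and higher in each Tlx3cko library. The lengths count all annotated exonic bases, 3298 for Sema7a and 8349 for Plxnc1, whichever transcripts were in use. Plxnc1 had already been called as lower, so that the ratio gives no separate support.

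Sema4f (ENSMUSG00000000627, chromosome 6, 82911885 to 82939769, minus strand) encodes a transmembrane semaphorin studied in the contact between Schwann cells and axons. It had 2402, 2362 and 2492 normalized counts in control DRGs against 3420.5, 3245 and 3053 in Tlx3cko DRGs. The controls lay close together, and all Tlx3cko libraries were above them. The means of 2418 ± 66.7 and 3240 ± 184 (SD, n = 3 each) gave a log2 fold change of 0.42 (SE 0.07, edgeR adjusted p = 0.00519). The call held in all 6 fits without 1 library, while with sex as a term the fitted log2 value was 0.38 (adjusted p = 0.12). Of the 6 listed Schwann cell markers 1, Egr2, was higher past the threshold and none was at 0. The next nearest to the threshold, Pmp22, had a log2 fold change of -0.31 (edgeR adjusted p = 0.0663). The summed levels of these markers overlapped between the groups (34532 to 41819 in control, 37193 to 42100 in Tlx3cko), and their part in the rise of Sema4f was not tested.

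Sema3g (ENSMUSG00000021904, chromosome 14, 31217860 to 31230352, plus strand) encodes a secreted semaphorin of vascular endothelium that binds neuropilin-2. It had 312, 317 and 369 normalized counts in control DRGs against 506, 538 and 486 in Tlx3cko DRGs. Every Tlx3cko library was above the controls, of which replicate 3 was the highest. With 333 ± 31.3 and 510 ± 26.1 normalized counts (SD, n = 3 each), the log2 fold change was 0.61 (SE 0.12, edgeR adjusted p = 0.00749). It stayed past the threshold in all 6 fits without 1 library, with a highest adjusted p of 0.0446, but with sex as a term the fitted log2 value was 0.47 (adjusted p = 0.217). The summed level of 6 endothelial markers was higher beside it, at 1082 to 1178 normalized counts in Tlx3cko libraries and 863 to 1005 in control libraries. Of these markers Pecam1 was higher past the threshold, the other 5 were not, and none was at 0; their part in the rise of Sema3g was not tested.

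Sema3f (ENSMUSG00000034684, chromosome 9, 107681500 to 107710475, minus strand) encodes the secreted semaphorin that repels axons through neuropilin-2. Its values were 582, 458 and 578 normalized counts in control DRGs against 912, 781 and 694 in Tlx3cko DRGs. The groups did not overlap, but the Tlx3cko libraries were spread over a wider range than the controls. The means were 539 ± 70.6 and 796 ± 110 normalized counts (SD, n = 3 each), with a log2 fold change of 0.56 (SE 0.13, edgeR adjusted p = 0.0249). The call was lost without control replicate 2 (adjusted p = 0.106), without Tlx3cko replicate 1 (0.0882) and without Tlx3cko replicate 2 (0.0743), and with sex as a term the fitted log2 value was 0.46 (adjusted p = 0.347). Its neighbour Sema3b lies 72.3 kilobases away on the same strand. Sema3b, also a secreted semaphorin, had 1805 ± 176 and 1942 ± 83.0 normalized counts (SD, n = 3 each) and did not pass the test (log2 fold change 0.11, 95% interval -0.084 to 0.29).

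Sema5a (ENSMUSG00000022231, chromosome 15, 32244810 to 32696341, plus strand) encodes a transmembrane semaphorin with thrombospondin repeats. It had 880, 671 and 840 normalized counts in control DRGs against 1034, 1163 and 1069 in Tlx3cko DRGs. All Tlx3cko values were above the controls, and control replicate 2 was the lowest. The log2 fold change of 0.45 (SE 0.11) was the nearest to the threshold among the 5 calls (edgeR adjusted p = 0.0358). It was lost without control replicate 2 (0.119), control replicate 3 (0.0644), Tlx3cko replicate 2 (0.149) and Tlx3cko replicate 3 (0.102), and with sex as a term the fitted log2 value was 0.37 (adjusted p = 0.393). The other member of its class, Sema5b, had 101, 172 and 89.3 normalized counts in control DRGs against 170, 152 and 154 in Tlx3cko DRGs, and a difference was not detectable at this spread (log2 fold change 0.40, 95% interval -0.10 to 0.90).

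**Figure D2:**
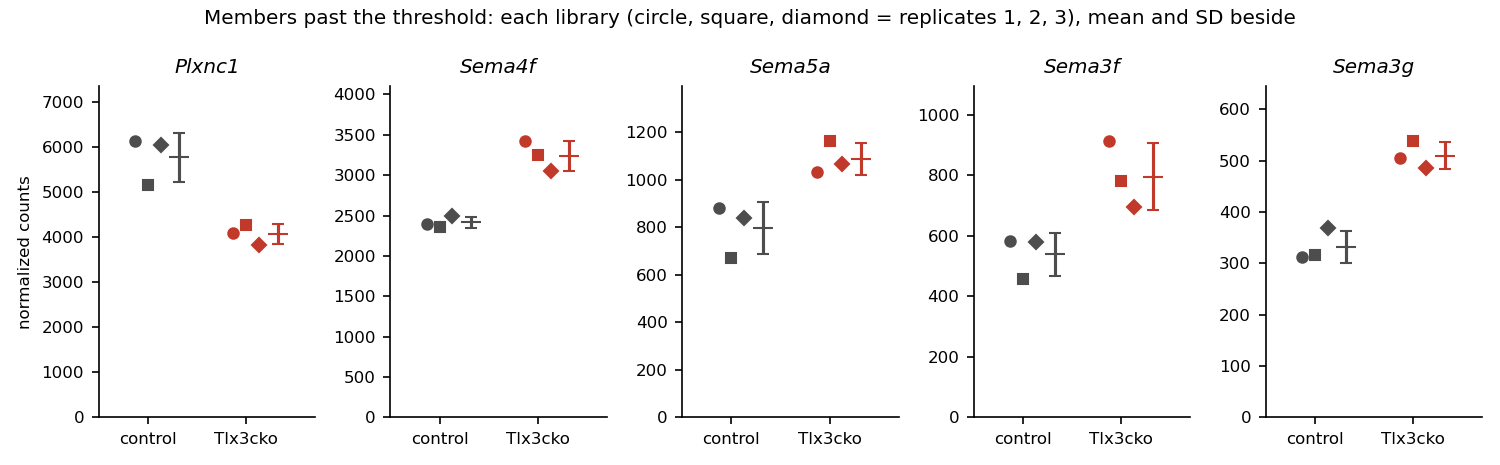
Normalized counts of the 5 members past the threshold in each library (circle, square and diamond for replicates 1, 2 and 3), with the mean and SD beside them (n = 3 per genotype). Plxnc1 is lower in every Tlx3cko library, and Sema4f, Sema5a, Sema3f and Sema3g are higher in every Tlx3cko library.

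The stretches just upstream of these genes are shown because 4 genes rose together and 1 fell. RefSeq (GRCm38.p6) gave a window for 26 of the 31 members and for 4 of the 5 past the threshold. Each sequence below is the 250 bases before the start that RefSeq annotates (for Plxnc1, Sema5a and Sema3g not the same base as the GENCODE gene boundary given above), written 5′ to 3′ on the strand of the gene. Plxnc1 is at chr10:94944846-94945095 (minus strand), Sema4f at chr6:82939770-82940019 (minus), Sema5a at chr15:32244563-32244812 (plus) and Sema3g at chr14:31217623-31217872 (plus). Capitals mark the GC box GGGCGG, the CCAAT box CCAAT, the TATA core TATAA and the homeodomain core TAATTG, each searched on both strands (adjacent or overlapping matches run together).
Plxnc1: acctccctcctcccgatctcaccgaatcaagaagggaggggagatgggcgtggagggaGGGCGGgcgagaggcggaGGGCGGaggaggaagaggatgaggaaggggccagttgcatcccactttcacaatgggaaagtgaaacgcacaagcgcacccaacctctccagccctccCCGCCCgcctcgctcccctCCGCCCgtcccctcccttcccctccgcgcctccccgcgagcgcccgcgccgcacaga
Sema4f: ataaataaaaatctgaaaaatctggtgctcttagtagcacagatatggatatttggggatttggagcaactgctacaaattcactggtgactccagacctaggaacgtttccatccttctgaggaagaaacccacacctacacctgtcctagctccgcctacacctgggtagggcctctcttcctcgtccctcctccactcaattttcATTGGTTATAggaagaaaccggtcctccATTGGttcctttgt
Sema5a: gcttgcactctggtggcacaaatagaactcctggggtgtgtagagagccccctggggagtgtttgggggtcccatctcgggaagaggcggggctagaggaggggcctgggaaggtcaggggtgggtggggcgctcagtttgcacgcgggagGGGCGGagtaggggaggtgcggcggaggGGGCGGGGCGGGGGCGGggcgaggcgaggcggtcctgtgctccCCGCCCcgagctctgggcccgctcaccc
Sema3g: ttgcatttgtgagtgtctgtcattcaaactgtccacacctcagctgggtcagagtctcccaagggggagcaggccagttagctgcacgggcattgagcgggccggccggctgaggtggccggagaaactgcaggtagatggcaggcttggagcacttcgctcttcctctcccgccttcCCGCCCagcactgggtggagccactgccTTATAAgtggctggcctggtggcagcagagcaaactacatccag

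The windows differed in make-up. Those of Plxnc1 and Sema5a held 68.8% and 72% G and C, with 4 and 5 GC boxes, and that of Sema3g held 60.4% with 1 GC box and 2 TATAA matches, which are the same TTATAA read on both strands. The Sema4f window held 46% G and C, no GC box, 2 CCAAT boxes and 1 TATAA match. Over all 32841 windows of this length, 32.7% held a GC box, 33.9% a CCAAT box, 22.8% a TATAA match and 7.17% the homeodomain core. Of the 37 windows of the members, 27 held a GC box, 7 a CCAAT box and 3 a TATAA match. The median G and C content was 64% over the member windows and 52.4% over all windows. A GC box was thus usual for the family and not particular to the genes that changed. The homeodomain core was in none of the 4 windows and in 1 of the 37 windows of the members. These matches describe the letters of a short window and say nothing of the binding of a factor.

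The levels of the members spanned a wide range in control DRGs. Per kilobase of exon, Sema7a and Plxnc1 were the most abundant, with 49.7 ± 3.92 and 46.3 ± 4.37 CPM per kilobase (SD, n = 3; CPM are counts scaled to an effective library size of 1000000), and their control ranges overlapped. Plxnd1, the receptor of Sema3e, and Sema4f followed with 31.4 ± 1.78 and 30.5 ± 0.843, and their ranges overlapped too. Sema3b came next with 25.2 ± 2.45, and its range was apart from that of Sema4f above it and of Sema4d below it at 10.9 ± 0.368. From Sema4d down to Sema4c, neighbours in the order overlapped in every pair. Of all 30 pairs of neighbours, 23 overlapped. In Tlx3cko DRGs the order at the top changed, with Sema4f at 40.9 ± 2.32 in the second and Plxnc1 at 32.6 ± 1.79 in the third place, on the same scale. The lowest tested member was Sema3d, with 0.679 ± 0.205 in control and 0.748 ± 0.0824 in Tlx3cko DRGs.

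**Figure D3:**
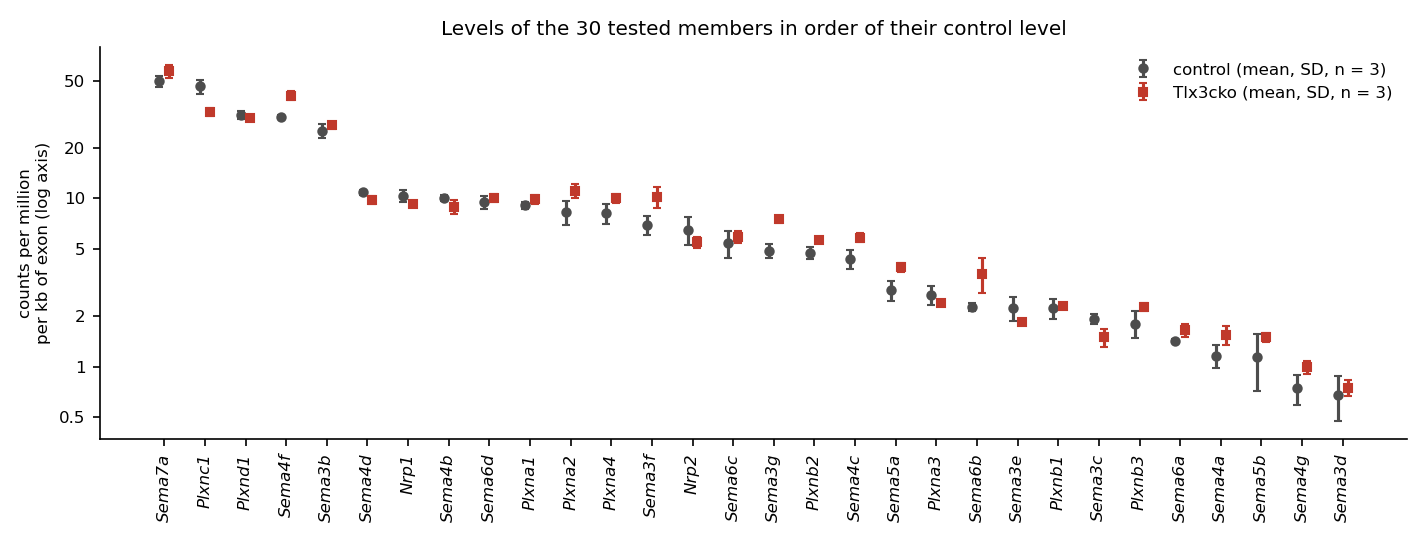
Mean level of each of the 30 tested members in CPM per kilobase of exon (log axis) with SD (n = 3), in order of the control level, for control and Tlx3cko DRGs. Sema7a, Plxnc1, Plxnd1, Sema4f and Sema3b stand above 20, and the other 25 stand below 12 in both genotypes.

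Sema3a, the secreted semaphorin that repels nociceptor axons through neuropilin-1, was at the limit of detection. It had 4, 0 and 0 counts in control DRGs against 1, 0 and 0 in Tlx3cko DRGs and was not tested; a count of 0 allows up to 3. Its receptor gene Nrp1 was expressed at 1516 ± 125 normalized counts in control DRGs and 1357 ± 35.5 in Tlx3cko DRGs (SD, n = 3 each). The Nrp1 values were 1396, 1506 and 1645 in control DRGs against 1369, 1317.5 and 1386 in Tlx3cko DRGs. They did not overlap, yet the log2 fold change of -0.16 (SE 0.09) did not pass the test (edgeR adjusted p = 0.444). Nrp2, the partner of Sema3f and Sema3g, had 1394.5, 977 and 1094 normalized counts in control DRGs against 896, 1002.5 and 1037 in Tlx3cko DRGs. The groups overlapped, and the log2 fold change was -0.24 (95% interval -0.50 to 0.027, edgeR adjusted p = 0.417).

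Within each library the levels per length of ligand and receptor were set side by side. The ratio of Sema3f to Nrp2 was 0.951, 1.07 and 1.21 in control DRGs against 2.32, 1.77 and 1.52 in Tlx3cko DRGs. The ratio of Sema3g to Nrp2 was 0.583, 0.846 and 0.879 in control DRGs against 1.47, 1.40 and 1.22 in Tlx3cko DRGs. Neither ratio overlapped between the genotypes. Sema3f and Sema3g had already been called as higher, so that these ratios give no separate support. How often ratios of other gene pairs show no overlap was not computed. Sema3e over its receptor Plxnd1 was between 0.0588 and 0.0888 in control and between 0.0587 and 0.0635 in Tlx3cko libraries, and these ranges overlapped. Sema4d over its receptor Plxnb1 was lower without overlap, at 4.56, 5.60 and 4.74 in control DRGs against 3.99, 4.53 and 4.34 in Tlx3cko DRGs. The gap was narrow, between 4.56 in control replicate 1 and 4.53 in Tlx3cko replicate 2. Sema5a over Plxna1 and over Plxna3, genes of A-type plexins it can signal through, was higher without overlap. The means were 0.312 ± 0.0281 in control and 0.394 ± 0.00279 in Tlx3cko DRGs for Plxna1. For Plxna3 they were 1.09 ± 0.277 and 1.63 ± 0.0488 (SD, n = 3 each). Sema5a was itself among the called rises, and its ratios to other plexins were not formed. Plxna1 and Plxna3 were at 108% and 89.3% of control, against 134% for Plxna2, 123% for Plxna4 and 126% for Plxnb3. Nrp1 over Nrp2 also overlapped, with means of 1.63 ± 0.365 and 1.69 ± 0.142 (SD, n = 3 each).

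**Figure D4:**
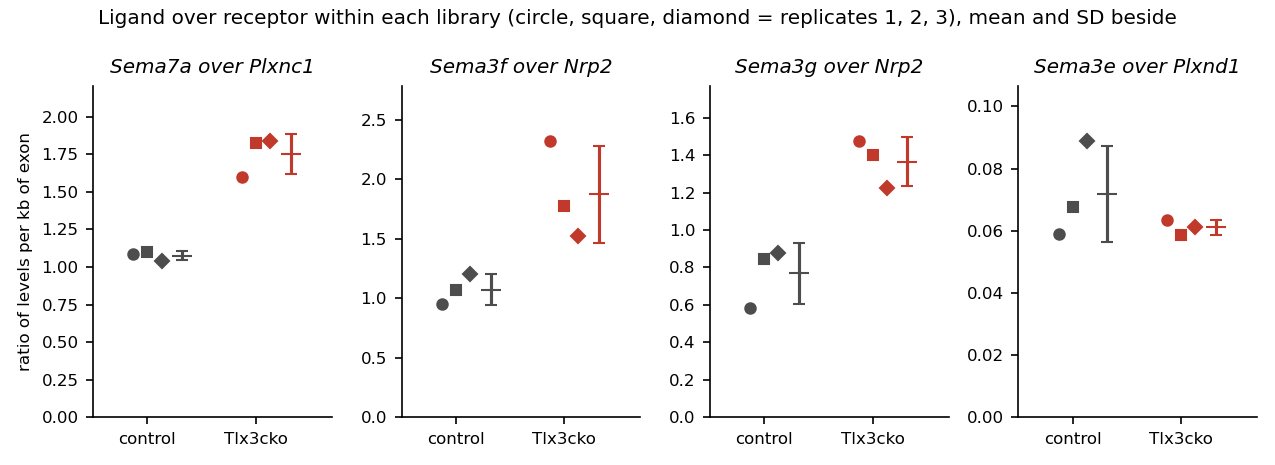
Ratio of ligand to receptor level per kilobase of exon in each library (circle, square and diamond for replicates 1, 2 and 3), with the mean and SD beside (n = 3 per genotype). Sema7a over Plxnc1 lies between 1.04 and 1.10 in control and between 1.60 and 1.84 in Tlx3cko libraries, and Sema3e over Plxnd1 overlaps.

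The other class 3 semaphorins Sema3c and Sema3e, both secreted cues, had fitted changes below 0. Sema3c had 219, 206 and 190 normalized counts in control DRGs against 172, 136 and 170 in Tlx3cko DRGs, without overlap (log2 fold change -0.36, edgeR adjusted p = 0.318). Sema3e had 311 ± 49.8 and 255 ± 7.17 normalized counts (SD, n = 3 each), also without overlap (log2 fold change -0.29, adjusted p = 0.378). In the other transmembrane classes the nearest to the threshold were Sema6b and Sema4c. Sema6b, a ligand of plexin A4, had 139, 126 and 139 normalized counts in control DRGs against 183, 270.3 and 184 in Tlx3cko DRGs, with Tlx3cko replicate 2 far above the rest. Its log2 fold change of 0.65 was the largest of the family but had a standard error of 0.18 (edgeR adjusted p = 0.0715). It passed in 2 of 14 alternatives, with DESeq2 (adjusted p = 0.0312) and without a filter on low counts (0.0136). None of the fits without 1 library passed, and with sex as a term the fitted log2 value was 0.61. Sema4c, a ligand of plexin B2, had 301 ± 38.1 and 402 ± 24.2 normalized counts without overlap (log2 fold change 0.42, adjusted p = 0.097). It passed in 1 of 14 alternatives, that without control replicate 1 (0.0448), and with sex as a term the fitted log2 value was 0.48. The annotation puts 7.27% of the exonic bases of Sema4c under the opposite-strand gene D430040D24Rik, so that reads of both may mix if counting ignored strand.

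Sema4b and Sema4d, both transmembrane, had log2 fold changes of -0.18 and -0.16, and the Sema4d values did not overlap between the groups (1229 to 1304 normalized counts in control, 1051 to 1177 in Tlx3cko). Sema4d is a ligand of plexin B1, whose gene Plxnb1 had a log2 fold change of 0.04 (95% interval -0.24 to 0.32). Sema6a, Sema6c and Sema6d, ligands of A-type plexins, had log2 fold changes of 0.20, 0.13 and 0.08, and none passed the test. The low members Sema4a and Sema4g, with control means of 93.9 and 96.4 normalized counts, had wide intervals that reached past 0.84 on the log2 scale.

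Among the receptors, Plxna2 was the first gene outside the threshold. Plxna2, a receptor of Sema6a and Sema6b, had 2449, 1762 and 2160 normalized counts in control DRGs against 2525, 3031 and 3010 in Tlx3cko DRGs. The groups were separated by a narrow gap between control replicate 1 and Tlx3cko replicate 1. Its log2 fold change was 0.43 (SE 0.11, edgeR adjusted p = 0.0551), and it passed without control replicate 1 (0.0169) and without Tlx3cko replicate 1 (0.0355), and in 5 of the 8 fits with another normalization, filter, tool or term. The other fits without 1 library did not pass (highest adjusted p = 0.202), and with sex as a term the fitted log2 value was 0.40. Plxna4, which signals for Sema3a with neuropilin-1, had 1721 ± 234 and 2121 ± 136 normalized counts without overlap (SD, n = 3 each), with a log2 fold change of 0.30 (adjusted p = 0.142). It passed in 1 of 14 alternatives, that without a filter on low counts (0.0232), and with sex as a term the fitted log2 value was 0.25. Plxna1 and Plxna3 had log2 fold changes of 0.12 and -0.17, with overlapping groups. Of the B-type plexins, Plxnb2 had 548.5 ± 45.5 and 653 ± 18.5 normalized counts without overlap (log2 fold change 0.25, adjusted p = 0.255).

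Plxna3 and Plxnb3 lie on the X chromosome and are given beside the sex imbalance, whose part in their values was not tested. Plxna3 had 271, 347 and 328 normalized counts in control replicates 1, 2 and 3, and 277, 295 and 273 in the Tlx3cko libraries, and its log2 fold change went from -0.17 to -0.22 with sex as a term. Plxnb3 had 167, 148 and 210.6 normalized counts in control replicates 1, 2 and 3, and 233, 217 and 210.6 in the Tlx3cko libraries. Control replicate 3 was level with Tlx3cko replicate 3. The log2 fold change was 0.32 (edgeR adjusted p = 0.402) and became 0.064 with sex as a term. Plxnd1, the receptor of Sema3e, had 3433 ± 194 and 3277 ± 95.7 normalized counts (SD, n = 3 each) and a 95% interval of the log2 fold change from -0.23 to 0.093.

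Of the 25 tested members that did not pass, 15 had a 95% interval within a 1.5-fold change in either direction, which is 0.585 on the log2 scale. For the other 10 the interval reached that size, and a change of 1.5-fold cannot be left out at this depth and spread. In simulated counts for this comparison, 53% of genes with a mean of at least 50 counts that were changed by 1.5-fold were recovered and 96% of those changed by 3-fold, and 8.02% of the calls were genes that had not been changed. The groups were without overlap in 17 of the 30 tested members, 12 higher and 5 lower. Of all genes tested 19.7% showed no overlap, 8.87% higher and 10.8% lower, and of the genes at least as abundant as the lowest tested member 22.4% did, 10.2% higher and 12.2% lower.

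Summed per kilobase of exon, the 20 semaphorins came to 176, 164 and 176 CPM per kilobase in control DRGs against 199, 207 and 196 in Tlx3cko DRGs. The summed level was higher in each Tlx3cko library than in any control, by a ratio of means of 1.17. The ratio was 1.17 for class 3, 1.18 for class 4, 1.35 for class 5, 1.14 for class 6 and 1.15 for class 7. These sums do not show a rise shared by the members of a class. The class 4 mean went from 57.8 to 68.0, and Sema4f alone went from 30.5 to 40.9. In that class the means of Sema4b and Sema4d were lower, and those of Sema4a, Sema4c and Sema4g were higher. Class 7 is Sema7a alone, which did not pass the test. The 9 plexins summed to 122, 106 and 116 in control DRGs against 103, 110 and 105 in Tlx3cko DRGs, which overlapped. Plexin A and plexin B genes came to 1.19 and 1.16 times their control sums, whereas Plxnc1, the largest single contributor in control, came to 0.704 times. The 2 neuropilins summed to between 15.8 and 17.4 in control and between 14.4 and 15.3 in Tlx3cko libraries.

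Beyond the receptors, the wider pathway was read from a list of 44 co-receptors, transducers and effectors, of which 43 were tested and Timd2 had 0 counts in all libraries. In the list 4 genes rose and 3 fell, or 16.3% against 4.25% of all genes tested, and the median log2 fold change was -0.01. Among genes at least as abundant as the lowest tested member the share was 5.9%. The list was chosen with earlier results of these data known, so that its share gives no independent support. The kinase gene Pak1, an effector of Rac below plexins, had 1559, 1467 and 1547 normalized counts in control DRGs against 2371, 2135 and 2155 in Tlx3cko DRGs. These groups were far apart, with a log2 fold change of 0.54 (SE 0.08, edgeR adjusted p = 0.00119), and the call held with sex as a term (0.0375) and in all 6 fits without 1 library.

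Mical1, which encodes an actin-oxidizing enzyme that binds A-type plexins, had 2341, 1485 and 1838 normalized counts in control DRGs against 1240, 933 and 1009 in Tlx3cko DRGs. It fell without overlap, with a log2 fold change of -0.83 (SE 0.15, edgeR adjusted p = 0.00533), past the threshold in all 6 fits without 1 library but not with sex as a term (log2 fold change -0.79, adjusted p = 0.0783). The annotation puts 15% of its exonic bases under Smpd2 on the other strand, which had a log2 fold change of -0.67 (adjusted p = 0.00469), and whether strand was used in counting is not given in the sources used here. The collapsin response mediator genes Dpysl2 and Dpysl5, which carry semaphorin signals to the cytoskeleton, fell by 0.50 and 0.35 on the log2 scale. Dpysl5 had 2329, 2431 and 2699 normalized counts in control DRGs against 2000, 1941 and 1894.5 in Tlx3cko DRGs (edgeR adjusted p = 0.0236), and kept its call with sex as a term (0.0311). Without control replicate 2, control replicate 3, Tlx3cko replicate 2 or Tlx3cko replicate 3 the call was lost (adjusted p from 0.0544). Dpysl2 was at the edge of the threshold (edgeR adjusted p = 0.0497) and of the 6 fits without 1 library passed in that without control replicate 3 (with sex as a term, adjusted p = 0.642). The other members of its family, Dpysl3, Dpysl4 and Crmp1, had log2 fold changes of -0.0093, 0.24 and -0.0016, and none passed the test.

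The adhesion genes Nrcam, a partner of neuropilin-2, and Cntn2, whose product forms complexes with L1-type adhesion molecules, rose. Nrcam had 1211, 1153 and 1216.5 normalized counts in control DRGs against 1497, 1523.5 and 1496 in Tlx3cko DRGs, each group in a narrow range (log2 fold change 0.33, edgeR adjusted p = 0.0275). Cntn2 had 5112 ± 385 and 6665 ± 460 normalized counts (SD, n = 3 each; log2 fold change 0.38, adjusted p = 0.0155). Vegfa, a growth factor that also binds neuropilins, rose from 707 ± 80.1 to 1029 ± 163 normalized counts (log2 fold change 0.54, adjusted p = 0.0275). With sex as a term the log2 fold changes of Nrcam, Cntn2 and Vegfa were 0.31, 0.28 and 0.51, with adjusted p of 0.285, 0.325 and 0.278. The call of Cntn2 was lost without control replicate 2 or Tlx3cko replicate 2 (highest adjusted p = 0.0936). Those of Nrcam and Vegfa were also lost without control replicate 3 or Tlx3cko replicate 3 (highest adjusted p = 0.111 and 0.147). L1cam, the X-linked gene of a neuropilin-1 partner, had 7955 ± 357 and 7400 ± 170 normalized counts and did not pass (adjusted p = 0.564).

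**Figure D5:**
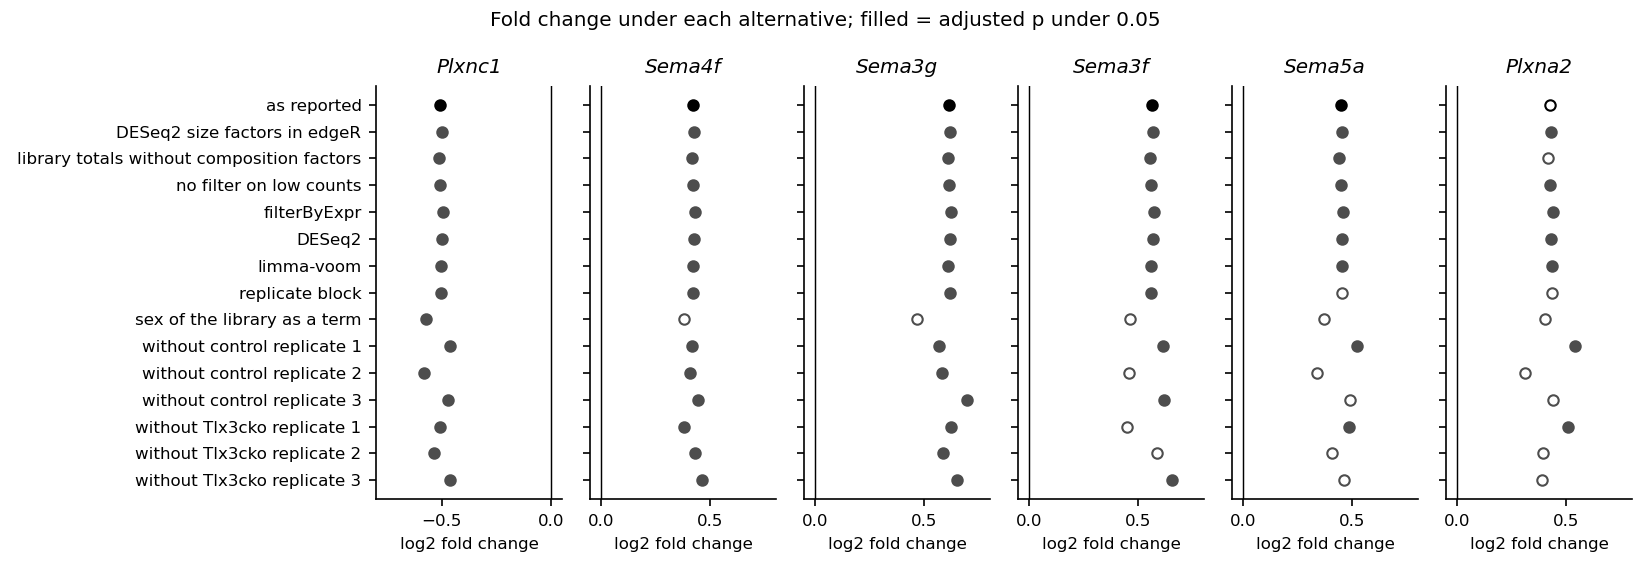
Log2 fold change of the 5 members past the threshold and of Plxna2 under the reported fit and 14 alternatives; filled points have an adjusted p under 0.05. Plxnc1 is filled throughout, Sema4f and Sema3g are open with sex as a term alone, and Sema3f, Sema5a and Plxna2 are open in 4, 6 and 7 alternatives.

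Other cell lists moved between the genotypes beside the members. Of 6 peptidergic nociceptor markers 3 were higher, with sums of 23891 to 25187 normalized counts in control and 39361 to 42611 in Tlx3cko libraries, and of 7 myelinated neuron markers 2 were higher (31675 to 35042, then 40579 to 42825). All 6 pruriceptor markers (1959 to 2301, then 359 to 424) and all 5 markers of C-fibre low-threshold mechanoreceptors (3890 to 6662, then 1698 to 1797) were lower. Of 6 fibroblast markers 4 were lower (4784 to 5641, then 3767 to 4070), 1 of 6 skeletal muscle markers was higher (104 to 1839, then 1533 to 2845), and no satellite glia, blood, immune or spinal cord marker passed the test, although 1 of the 6 spinal cord genes was tested. None of these markers was at 0 in all libraries, and their part in the results of the members was not tested.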

How the data were processed

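RNA was sequenced in 3 control and 3 Tlx3cko DRG samples. The authors deposited raw read counts per gene, made per the submitters' processing notes with STAR 2.5.2a and mm10; the counting program and its use of strand are not given in the sources used here. Of 47937 rows, 208 were unnamed loci, and 47310 of 47729 Ensembl identifiers matched GENCODE M21 (GRCm38, which is mm10). Genes summing to 10 or more counts (20006) were TMM-normalized (factors 0.994 to 1.01) and tested with edgeR 4.0.16 in R 4.3.3, two-sided, with Benjamini-Hochberg adjusted p under 0.05. Standard errors (SE) were computed as the log2 fold change over the square root of F. Replicates differed by 4.32 to 10.1 times sampling noise (chi-square per degree of freedom) and entered separately. The study's methods give 3 mice per genotype. An exact permutation test of 3 against 3 cannot give a p below 0.1. Alternatives used DESeq2 1.42.0, limma 3.58.1, other normalizations and filters, a replicate block, a sex term and each library left out. The test was tried on simulated counts (19639 genes). Every member could be named, and from the pathway list those past the threshold or at 0; L1cam, Dpysl3, Dpysl4 and Crmp1 were added after their values were seen. Members and lists were chosen with earlier results of these data known.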

Additional observations from a re-analysis of the deposited data

How the results depend on the processing

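The number of members past the threshold (5) was 8 without a filter on low counts, 1 with sex as a term and between 3 and 7 when 1 library was removed, lowest without control replicate 2 or Tlx3cko replicate 2. It was 6 with DESeq2 size factors in edgeR, filterByExpr or limma-voom and 7 with DESeq2. For the pathway list (7) the count was 4 with the replicate block, 4 with sex as a term (Pak1, Dpysl5, Chl1 and Arhgef11) and between 2 and 6 without 1 library. Over all genes (851) it was 1529 without the filter, 487 with sex as a term and between 488 and 938 without 1 library. Leaving out 1 library moved Plxnb1 between -0.055 and 0.13 and Sema3d between -0.0013 and 0.40 (lowest without control replicate 2, highest without control replicate 1), and Plxnd1 and Sema6d turned to 0.013 and -0.0085 with sex as a term; none of these was called. No other direction of a tested member turned. The causes of these shifts were not tested.

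Same-numbered libraries did not deviate together (correlations over 13373 genes of -0.134, -0.0095 and -0.116), so that a pairing by number was not seen. Differently numbered libraries gave correlations between -0.010 and 0.132. With 3 libraries per group, deviations from the group mean are tied to each other, and this check cannot exclude a pairing. With the replicate block 4 of the 5 members kept their call, and Sema5a had an adjusted p of 0.0532 (edgeR).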

Other observations

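The annotation holds antisense genes at 4 of the members. Plxna4os3, which lies against Plxna4, was counted at 117, 64 and 164 in control DRGs against 112, 148 and 158 in Tlx3cko DRGs (log2 fold change 0.50, SE 0.28, edgeR adjusted p = 0.466). Plxna4os1 and Plxna4os2 had at most 1 count in any library. Gm26811, which covers 10.7% of the exonic bases of Plxna1 from the other strand, had 512 ± 25.6 and 530 ± 132 normalized counts (SD, n = 3 each). D430040D24Rik, against Sema4c, had 373 ± 33.9 and 424 ± 82.6, and Gm7628, against Plxnb1, had between 4 and 14 counts per library. None of these passed the threshold.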
